A study of Mus musculus with 12 samples.

Results

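Otx2, Gbx2, Pou3f1, Sox3, Sox4, Zic2 and Zic5 are 7 transcription factor genes of the primed epiblast and of the anterior-posterior axis. Their probes were taken as every array probe whose transcript accession maps to one of these symbols, which makes 7 of the 20959 genes matched on either of the 2 array designs used. Total RNA came from the pluripotent mouse embryonic stem cell line J1, adapted to gelatin-coated plates and kept with LIF at 1000 U/mL, a cytokine that sustains the self-renewal of these cells. Cells received retinoic acid (RA) at 1 µM, its solvent DMSO (1 µL), vitamin C (VC, given as 50 µg) or its solvent ddH2O (1 µL) for 24 h (3 samples per group). The series title asks for genes that respond to either compound. All groups therefore shared the J1 line, the serum replacement medium and the LIF. RA and DMSO samples were on one design and VC and ddH2O samples on another, so each treatment was compared with its own solvent and no level was set across the designs. Values are log2 signals relative to the 75th percentile of the same array, so 0 means as bright as that percentile. They are not comparable between probes.

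In the mouse embryo, the naive inner cell mass cells that resemble these stem cells become epiblast, which is primed to form the germ layers and is then divided along the head-to-tail axis. Otx2, a homeodomain factor, marks the exit from the naive state and later the forebrain and midbrain, while Gbx2, another homeodomain factor, marks the territory behind them, and the pair repress each other where they meet. Retinoic acid is a ligand of nuclear receptors and a signal that posteriorises neural tissue. Vitamin C is a cofactor of iron-dependent dioxygenases, among them the TET enzymes.

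Promoter sequence, the 250 bases before each annotated start, was given for Otx2 (4 start sites), Gbx2, Sox4 and Zic5 by RefSeq for GRCm38.p6. A window is printed for each of these 4 genes, for Otx2 that of the start site with the most motif matches. Pou3f1, Sox3 and Zic2 are named only. Capitals mark matches to searched motifs, 5′ to 3′ on the gene's own strand, and the windows are chr14:48665110-48665359 on the minus strand for Otx2 start site 3, chr1:89931177-89931426 on the minus strand for Gbx2, chr13:28953700-28953949 on the minus strand for Sox4 and chr14:122465659-122465908 on the minus strand for Zic5.
Otx2 start site 3: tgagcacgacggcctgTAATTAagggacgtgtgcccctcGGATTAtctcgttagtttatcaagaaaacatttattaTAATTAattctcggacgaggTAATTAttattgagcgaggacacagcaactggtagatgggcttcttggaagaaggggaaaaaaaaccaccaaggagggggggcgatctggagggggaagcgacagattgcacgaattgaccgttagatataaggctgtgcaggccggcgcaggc
Gbx2: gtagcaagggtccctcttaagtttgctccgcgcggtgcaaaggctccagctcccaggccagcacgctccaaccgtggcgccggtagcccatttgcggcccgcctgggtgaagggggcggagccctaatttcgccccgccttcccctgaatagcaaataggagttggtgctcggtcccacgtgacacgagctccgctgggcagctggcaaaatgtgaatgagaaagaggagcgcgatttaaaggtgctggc
Sox4: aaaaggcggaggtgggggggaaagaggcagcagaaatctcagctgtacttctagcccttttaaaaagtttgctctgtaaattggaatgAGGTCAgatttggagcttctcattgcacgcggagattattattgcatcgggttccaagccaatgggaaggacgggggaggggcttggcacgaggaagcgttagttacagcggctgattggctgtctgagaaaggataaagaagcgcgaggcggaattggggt
Zic5: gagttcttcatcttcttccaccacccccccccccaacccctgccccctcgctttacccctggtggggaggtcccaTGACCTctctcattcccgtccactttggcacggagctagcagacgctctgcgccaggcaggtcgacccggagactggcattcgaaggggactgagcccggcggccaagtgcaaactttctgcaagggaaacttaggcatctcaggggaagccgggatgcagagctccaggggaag
The motifs were searched on both strands. AGGTCA, the half-site of retinoic acid receptors, was found in 14.0% of 32851 promoters of the same length. It lay in the Sox4 window with its first base 162 bases before the start (position -162) and, read from the other strand as TGACCT, in the Zic5 window at position -175. None of the windows of Otx2 or Gbx2 held it. Paired half-sites spaced by 5 bases (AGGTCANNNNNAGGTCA) or by 2 (AGGTCANNAGGTCA) each occurred in 3 of the 32851 promoters and in no window of these genes. TAATCC, the sequence that OTX proteins bind, occurred in 6.25% of promoters and in the window of Otx2 start site 3 at position -211, read from the other strand as GGATTA. A general homeodomain sequence is TAATTA, which reads the same on both strands and shares its first 4 letters with the OTX sequence. It occurred in 4.84% of promoters and was found 3 times before Otx2 start site 3 (positions -234, -174 and -154) and 1 time before Otx2 start site 1 (position -141). The octamer ATGCAAAT (1.60% of promoters) and the SOX sequence ACAAAG (16.5%) were in none of the 7 windows. GC content was 48.4%, 61.6%, 50.8% and 62.4% in the printed windows of Otx2, Gbx2, Sox4 and Zic5, beside a median of 52.4% over all promoters. A match is a description of these letters and does not show binding.

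The RA and DMSO design carried 8 probes of the 7 genes, 2 of them for Sox4, and the VC and ddH2O design carried 6 probes of 6 genes. No probe of the VC design matched Sox3. Every one of these probes was well above background on all 6 arrays of its design, so all passed the filter on low signal. Gbx2 was read by the same probe on both designs, and the other genes by different probes. Across the arrays, 61.6% to 66.2% of spots were well above background on the RA and DMSO design and 67.1% to 70.4% on the VC and ddH2O design, and no spot was saturated. All stem cell markers with a probe, 8 on the RA and DMSO design and 7 on the VC and ddH2O design, were above background on at least 1 array of each group. All RA arrays lay on one slide and all DMSO arrays on another, so slide and treatment cannot be told apart. The signal at the 75th percentile was 288 to 388 on RA arrays, against 608 to 612 on DMSO arrays. Whether the 3 samples of a group were separate cultures is not given in the labels, so the spread behind each p-value could be that of technical repeats.

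After RA the 7 genes split. Otx2, Zic5, Zic2 and Pou3f1 fell, Sox4 and Sox3 rose, and Gbx2 did not pass the test. The differences ran from Otx2, 152-fold lower in RA, to Sox4, 5.13-fold higher. Of the 8 probes 3 rose and 4 fell (limma, Benjamini-Hochberg adjusted p under 0.05), where 36% of the 37046 probes tested rose and 35.5% fell, 71.6% in all. On 7 of the 8 probes no RA array overlapped a DMSO array, as on 77.1% of all probes. Most probes on this design changed, so the number of changed probes does not set these genes apart. The median difference over the 8 probes was -0.36 on the log2 scale, and over all tested probes 0.03.

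**Figure D1:**
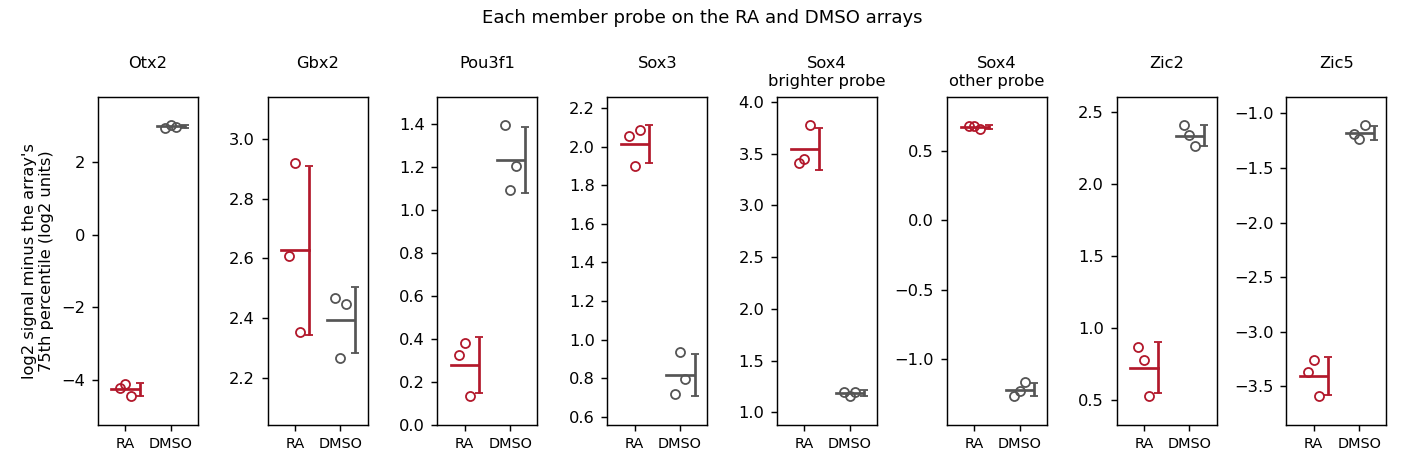
Log2 signal minus the array's 75th percentile for each probe of the 7 genes, with a panel per probe and its own vertical axis. Circles are the 3 RA arrays (left, red) and the 3 DMSO arrays (right, grey), horizontal lines their means and bars 1 SD. The RA and DMSO arrays of Gbx2 overlap, and those of the 7 other probes do not.

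Otx2 was at -4.22, -4.11 and -4.45 on the RA arrays, against 2.95, 3.02 and 2.98 on the DMSO arrays. The DMSO arrays lay within 0.1 of each other and every RA array was far below them. The mean was -4.26 ± 0.17 in RA and 2.98 ± 0.04 in DMSO (SD, n = 3 each). The difference was -7.25 (SE 0.10, 95% interval -7.50 to -6.99, limma adjusted p = 4.368e-07), and 0.0243% of tested probes fell as far. The RA signal stayed above background on all 3 arrays, where the dimmest detected signals were at -5.68, -6.18 and -5.03. The normexp alternative, which starts from the median spot signal and its local background, adds an offset of 50 and applies quantile normalization, gave -5.22. The fall was called under all 17 alternative settings. Across those that kept every sample it ran from -7.73 to -5.22, so its size was not settled. In bulk RNA, fewer cells with the transcript and less transcript per cell cannot be told apart.

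Gbx2 was at 2.61, 2.92 and 2.35 on the RA arrays, against 2.47, 2.27 and 2.45 on the DMSO arrays. The groups overlapped, and the RA arrays were more spread. The means were 2.63 ± 0.28 in RA and 2.39 ± 0.11 in DMSO (SD, n = 3 each), a difference of 0.23 (95% interval -0.15 to 0.62, limma adjusted p = 0.220). The sign turned under other scalings, to -0.11 with the array median and to -0.25 with the spike-in controls. It passed the test with quantile normalization (0.47, limma adjusted p = 0.0339), the authors' series values (0.44, limma adjusted p = 0.0493), normexp (0.45, limma adjusted p = 0.0184) and without RA replicate 3 (0.37, limma adjusted p = 0.0454), so neither its direction nor its call was settled.

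Pou3f1 encodes OCT6, a POU-domain factor of the epiblast and of neural and glial cells. It was at 0.32, 0.38 and 0.13 on the RA arrays, against 1.39, 1.09 and 1.20 on the DMSO arrays. All RA arrays were below all DMSO arrays. It was 1.93-fold lower in RA (log2 difference -0.95, SE 0.11, limma adjusted p = 0.000505), and 15.8% of tested probes fell as far.

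Sox3 and Sox4 moved up. Sox3, an X-linked relative of Sox2 that is expressed in neural progenitors, was at 2.05, 1.90 and 2.09 on the RA arrays, against 0.72, 0.94 and 0.80 on the DMSO arrays. It was 2.29-fold higher in RA (log2 difference 1.20, SE 0.09, limma adjusted p = 8.64e-05), with a value of 0.71 under spike-in scaling. Sox4, a factor of the group that also holds Sox11 and is expressed in many differentiating cells, had 2 probes that both rose. The brighter was at 3.41, 3.45 and 3.77 on the RA arrays, against 1.20, 1.16 and 1.20 on the DMSO arrays. RA replicate 3 was the highest array of this probe. The other was at 0.68, 0.68 and 0.65 on the RA arrays, against -1.26, -1.23 and -1.17 on the DMSO arrays. These are 5.13-fold (log2 difference 2.36, SE 0.11, limma adjusted p = 1.31e-05) and 3.70-fold (1.89, SE 0.07, limma adjusted p = 3.91e-06) higher in RA, so the probes gave the same direction and different sizes. Among tested probes 5.06% rose as far as the brighter and 7.13% as far as the other.

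Zic2 and Zic5 are zinc finger factors of the early neural tube and neighbours on chromosome 14, with 1 gene, the noncoding 2610035F20Rik, annotated between or across them. Zic2 was at 0.87, 0.78 and 0.53 on the RA arrays, against 2.41, 2.34 and 2.26 on the DMSO arrays. Zic5 was at -3.37, -3.26 and -3.59 on the RA arrays, against -1.19, -1.23 and -1.11 on the DMSO arrays. For both genes every RA array was below every DMSO array, and RA replicate 3 was the lowest. Zic2 was 3.06-fold lower in RA (log2 difference -1.61, SE 0.11, limma adjusted p = 4.99e-05) and Zic5 4.69-fold lower (-2.23, SE 0.11, limma adjusted p = 1.24e-05). With normexp the difference of Zic5 was -1.50.

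Array scaling mattered for the design as a whole. The median over all probes moved by -0.34 with scaling to the array median and by -0.48 with scaling to the spike-in controls. The share of calls that were rises was 50.3% with the 75th percentile, 34.0% with the array median and 27.1% with the spike-in controls. The calls of Otx2, Pou3f1, Sox3, Sox4, Zic2 and Zic5 held with the same direction under every scaling and with each sample left out in turn.

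**Figure D2:**
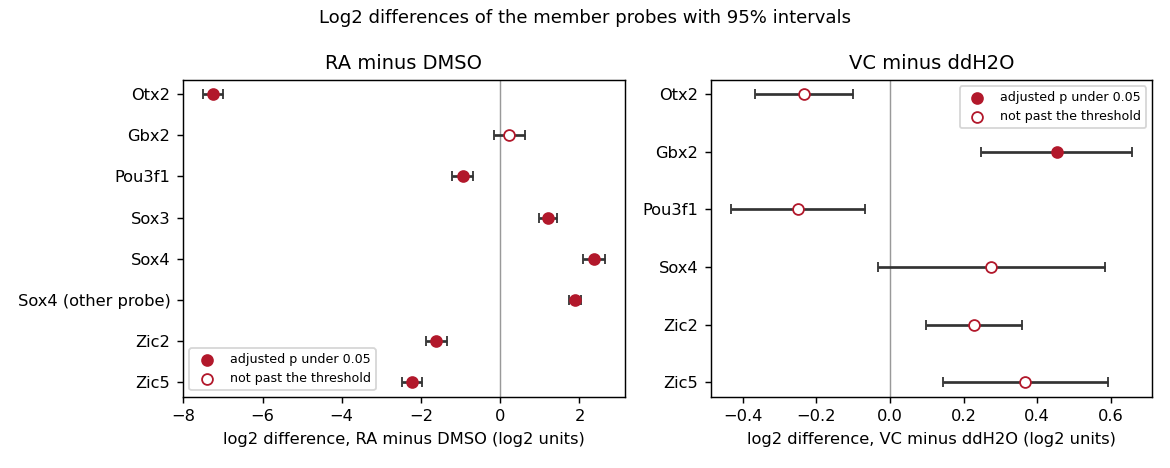
Log2 differences of every probe of the 7 genes, RA minus DMSO on the left and VC minus ddH2O on the right, with 95% intervals from the limma fit. Filled points passed an adjusted p of 0.05. The horizontal scales differ, from -7.25 to 2.36 for RA and from -0.25 to 0.45 for VC.

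The genes around them in the same processes were read from lists. Of 12 primed and formative epiblast genes, 5 rose and 7 fell after RA, where 34.8% of genes rose and 40.8% fell by their brightest probe, and the list's median difference was -2.72 against -0.07 for all genes. Tcf15, a basic helix-loop-helix factor of cells primed to differentiate, was at -0.16 ± 0.04 in RA and 4.82 ± 0.06 in DMSO (SD, n = 3 each), a difference of -4.97 (limma adjusted p = 4.32e-07). Utf1, a chromatin protein of pluripotent cells, differed by -4.80 (limma adjusted p = 5.41e-07). In the other direction, Cdh2, the gene of N-cadherin, differed by 4.97 (limma adjusted p = 3.02e-06) and Sall2, a zinc finger factor, by 2.14 (limma adjusted p = 4.56e-06).

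Anterior and midbrain-hindbrain genes did not move one way. Of 14 genes, 8 were tested, of which 3 rose and 4 fell, with a median of -0.03. Among all genes, 34.8% rose and 40.8% fell. Lhx5, a forebrain LIM-homeodomain gene, was higher in RA by 1.77 (limma adjusted p = 0.000304) and Lmx1b, a gene of the midbrain-hindbrain region, by 1.32 (limma adjusted p = 0.000177). With normexp these differences were 0.33 for Lhx5 and 0.51 for Lmx1b, and both passed the test. En2, the midbrain-hindbrain homeodomain gene, fell by 1.16 on the log2 scale (limma adjusted p = 5.99e-05) and Fgf8, the signal of the boundary between those regions, by 0.88 (limma adjusted p = 0.000692). Otx1, the closest relative of Otx2, was not tested, as it was above background on too few arrays.

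Posterior genes mostly rose. Of 13 genes, 10 were tested, of which 8 rose and 1 fell, with a median of 2.83. Among all genes, 34.8% rose and 40.8% fell. Meis1, a cofactor of HOX proteins, was at 4.93 ± 0.04 in RA and -1.51 ± 0.10 in DMSO (SD, n = 3 each), a difference of 6.44 (limma adjusted p = 3.47e-07). Hoxb2, a hindbrain HOX gene, differed by 6.40 (limma adjusted p = 3.35e-07), and by 5.81 with normexp. Wnt8a, a ligand of the primitive streak, was the member of the list that fell, by 0.52 on the log2 scale (limma adjusted p = 0.00190).

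Relatives of the 7 genes were also divided. Of 14 paralogs, 10 were tested, of which 6 rose and 2 fell, with a median of 1.23. Among all genes, 34.8% rose and 40.8% fell. On its brightest probe Pou3f2, the neural relative of Pou3f1, was at -2.14 in RA and not well above background on any DMSO array. On these values it was at least 15.4-fold higher (limma adjusted p = 6.24e-07), while Pou3f1 fell. Its other probes, also dim on all DMSO arrays, had fitted differences of 5.24 (limma adjusted p = 1.02e-05) and 3.11 (8.66-fold, limma adjusted p = 0.00061). With normexp the difference of the brightest probe was 1.46 on the log2 scale. That value and the 8.66-fold are below the bound, so the size of the rise of Pou3f2 was not settled. Sox1, a neural relative of Sox3, differed by 2.32 on its brighter probe (limma adjusted p = 2.37e-06) and by 1.10 on its other probe (limma adjusted p = 6.45e-05). Sox2, which shares the SoxB1 group with Sox1 and Sox3, went the other way, with a difference of -2.07 (limma adjusted p = 3.77e-06). Zic1, a relative of Zic2 and Zic5, differed by -1.11 on its brighter probe (limma adjusted p = 3.21e-05) and by 7.53 on its other probe (limma adjusted p = 1.49e-06), so its direction was not settled.

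**Figure D3:**
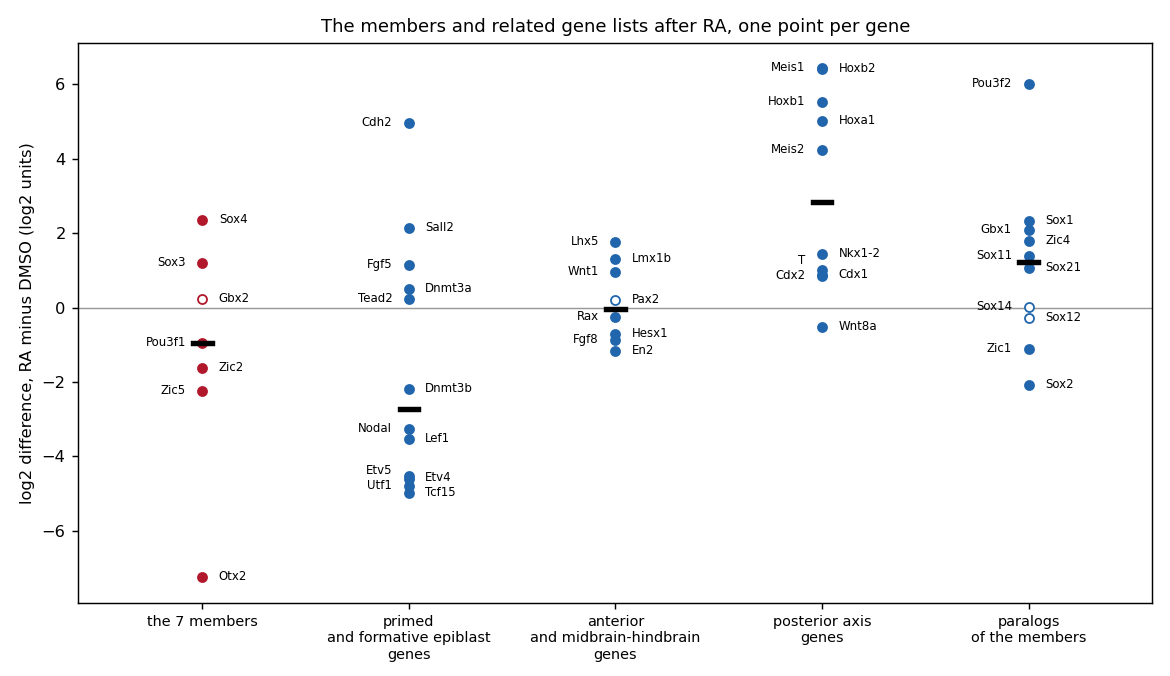
Log2 difference, RA minus DMSO, of each tested gene by its brightest probe, for the 7 genes (red) and 4 lists (blue). Filled points passed an adjusted p of 0.05 and short black bars are medians. Pou3f2 and Zic4, at their fitted values here, were no brighter than background in DMSO. The medians of the lists are -2.72, -0.03, 2.83 and 1.23 from left to right.

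Other markers moved with the RA arrays too. Of 8 stem cell markers, 7 fell and 1 rose, where 34.8% of genes rose and 40.8% fell by their brightest probe. The same shares apply beside each marker list below. Pou5f1, the gene of OCT4, differed by -5.04 (limma adjusted p = 3.77e-05), and Nanog, another core pluripotency factor, rose, by 1.32 (limma adjusted p = 0.000191). Cyp26a1, which encodes the enzyme that clears retinoic acid, differed by 8.34 (limma adjusted p = 2.90e-07), and by 7.36 with normexp. Of 5 tested neural progenitor markers, 5 rose, with a summed level of 19.5 to 20.5 times the 75th percentile in RA and 2.84 to 2.87 times in DMSO. Of 6 tested fibroblast markers, 5 rose and 1 fell, and 2 of 8 were not above background on any array. The summed level of the fibroblast list was 38.0 to 40.7 in RA and 1.98 to 2.13 in DMSO. Such a sum adds different probes, so the brightest weighs most. In RA this was Col1a2, at 5.11 in RA and -0.99 in DMSO on the log2 scale. All 6 primitive endoderm markers, of which Pdgfra is also in the fibroblast list, rose, with a summed level of 4.28 to 4.74 in RA and 0.820 to 0.865 in DMSO. Of 3 tested blood and endothelium markers, 2 rose and 1 fell, and the summed level was 0.460 to 0.512 in RA and 0.576 to 0.597 in DMSO. The part of these cell types in the differences of the 7 genes was not tested.

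After VC the differences were small. Gbx2 was the only one of the 6 measured genes that passed the test, 1.37-fold higher in VC. The other 5 lay between -0.25 and 0.37 on the log2 scale. Of the 6 probes 1 rose and 0 fell, where 2.97% of 28157 tested probes rose and 5.32% fell, 8.29% in all. No overlap between VC and ddH2O arrays was seen on 5 of the 6 probes, 3 higher and 2 lower, against 36.6% of all probes. At an unadjusted limma p under 0.05 there were 3 higher and 2 lower, where 28.7% of all tested probes passed that p in either direction.

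**Figure D4:**
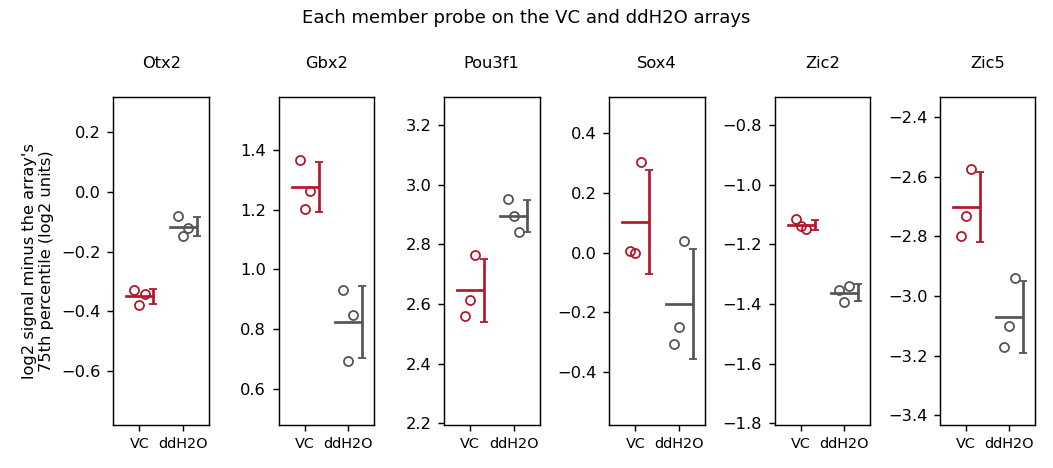
Log2 signal minus the array's 75th percentile for each measured probe on the VC and ddH2O design, with a panel per probe and its own vertical axis. Circles are the 3 VC arrays (left, red) and the 3 ddH2O arrays (right, grey), horizontal lines their means and bars 1 SD. Sox4 is the only panel in which the groups overlap.

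Gbx2 was at 1.37, 1.20 and 1.26 on the VC arrays, against 0.93, 0.69 and 0.85 on the ddH2O arrays. All VC arrays were above all ddH2O arrays. The difference was 0.45 (SE 0.09, 95% interval 0.25 to 0.66, limma adjusted p = 0.0337), and 2.50% of tested probes were higher by as much. The call was lost when any of the 6 samples was left out (limma adjusted p from 0.0586 to 0.116) and without the filter on low signal (0.0960). VC replicates 1 and 2 and ddH2O replicates 2 and 3 shared a slide, and VC replicate 3 and ddH2O replicate 1 lay on a slide each. VC replicate 3 was also scanned on a different day from all other arrays of this design. Within the shared slide the difference was 0.51 (limma adjusted p = 0.126), and between the arrays of the other slides 0.33.

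Otx2 was at -0.33, -0.38 and -0.34 on the VC arrays, against -0.08, -0.15 and -0.12 on the ddH2O arrays, as means of 10 spots of its probe. All VC arrays were lower, with spots within an array varying by an SD of 0.05 to 0.11. The difference was -0.23 (95% interval -0.37 to -0.10, limma adjusted p = 0.0540), which missed the threshold. It was -0.22 within the shared slide and -0.26 between the other slides.

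Pou3f1 was at 2.56, 2.62 and 2.76 on the VC arrays, against 2.95, 2.89 and 2.84 on the ddH2O arrays. The VC arrays lay below the ddH2O arrays by a narrow margin, and the difference of -0.25 missed the threshold (limma adjusted p = 0.0908). Sox4 was at 0.01, 0.0005 and 0.30 on the VC arrays, against -0.31, -0.25 and 0.04 on the ddH2O arrays. These groups overlapped, and the difference of 0.28 did not pass (95% interval -0.03 to 0.58, limma adjusted p = 0.215). It was 0.11 within the shared slide and 0.61 between the other slides.

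Zic2 was at -1.12, -1.14 and -1.15 on the VC arrays, against -1.35, -1.40 and -1.34 on the ddH2O arrays. Zic5 was at -2.80, -2.73 and -2.57 on the VC arrays, against -3.17, -3.10 and -2.94 on the ddH2O arrays. For both genes the VC arrays lay above the ddH2O arrays, by 0.23 for Zic2 (limma adjusted p = 0.0544) and 0.37 for Zic5 (limma adjusted p = 0.0618), and neither passed. With 1 probe per gene, which tests 14530 features in place of 28157, Gbx2 (limma adjusted p = 0.0189), Zic2 (0.0287) and Zic5 (0.0388) were called higher and Otx2 (0.0287) lower.

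**Figure D5:**
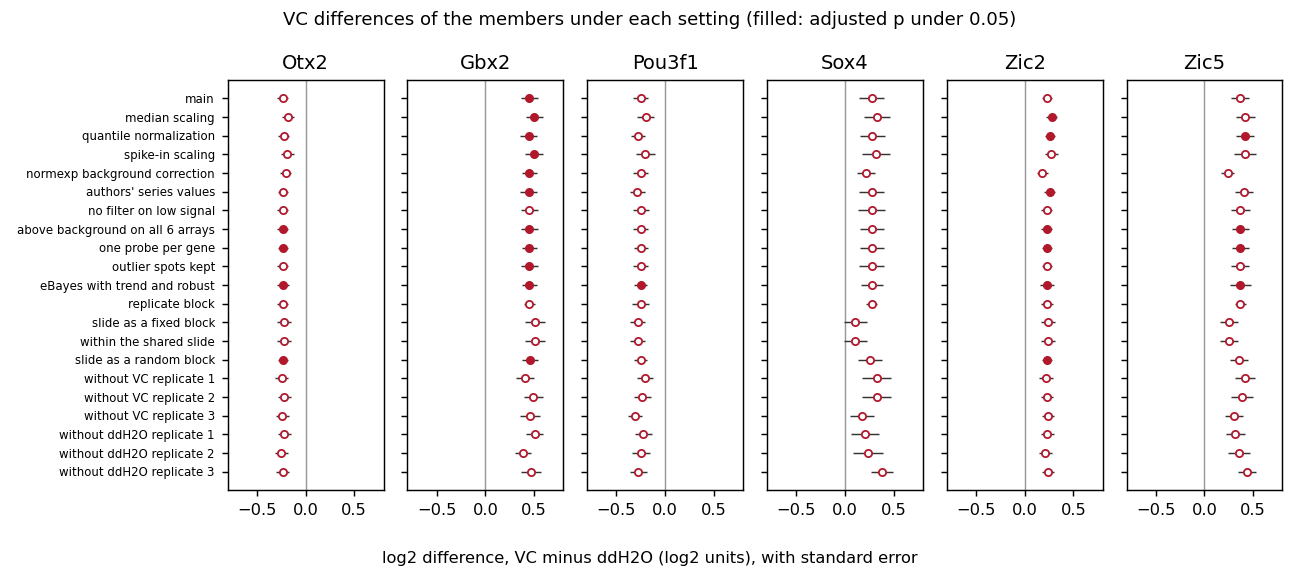
Log2 differences, VC minus ddH2O, of the 6 measured genes under the chosen setting (top, named main) and each alternative, with standard errors. Filled points passed an adjusted p of 0.05. Otx2 and Pou3f1 stay below 0 and the other 4 genes above 0 throughout, and no setting that leaves out a sample has a filled point.

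The lists moved little after VC. Of 12 epiblast genes 1 rose and 0 fell, where 3.18% of genes rose and 7.14% fell by their brightest probe. At an unadjusted limma p under 0.05, 4 were higher and 1 lower, where 28.7% of all tested probes passed in either direction. The gene called higher was Etv4, an ETS factor downstream of FGF signalling, which differed by 0.36 (limma adjusted p = 0.0364). Of 6 tested anterior and midbrain-hindbrain genes 0 rose and 1 fell (0 and 3 unadjusted), namely Fgf8, at -0.52 (limma adjusted p = 0.0161). The Etv4 call was lost with any sample left out (limma adjusted p from 0.0507 to 0.136), and that of Fgf8 in 3 of the 6 such fits: without VC replicate 1 (0.0720), ddH2O replicate 1 (0.0695) and ddH2O replicate 2 (0.0860). Both calls were also lost without the filter on low signal (limma adjusted p = 0.101 for Etv4 and 0.0635 for Fgf8) and with the slide as a fixed block or within the shared slide (0.176 and 0.110). None of 11 tested posterior genes and none of 9 tested paralogs was called (1 higher and 6 lower, and 1 higher and 2 lower, unadjusted). Median differences were 0.12, -0.01, -0.20 and 0.10 for the 4 lists in the order epiblast, anterior, posterior and paralogs, against -0.0006 for all genes. Of 7 stem cell markers 3 rose (3 higher and 0 lower unadjusted), namely Zfp42, Esrrb and Klf4. Pou5f1 differed by 0.02 (limma adjusted p = 0.912) and Sox2 by 0.16 (limma adjusted p = 0.215). Cyp26a1 differed by -0.27 (limma adjusted p = 0.0739). Of 6 tested fibroblast markers 1, Thy1, fell (0 higher and 3 lower unadjusted). The list's summed level was 2.55 to 2.73 times the 75th percentile in VC and 3.30 to 3.64 times in ddH2O. Thy1 was the brightest of that list and weighs most in the sum, at 0.52 in VC and 1.13 in ddH2O on the log2 scale. Of 5 tested neural progenitor markers 1, Hes5, fell (0 higher and 3 lower unadjusted). Without VC replicate 1, ddH2O replicate 1 or ddH2O replicate 2, no probe of this design was called. The same held without the filter on low signal and with the slide as a fixed block. The calls of Zfp42, Esrrb, Klf4, Thy1 and Hes5 were therefore lost in each of those fits. The primitive endoderm list had 0 calls (0 higher and 1 lower unadjusted), and the blood and endothelium list 0 calls (0 unadjusted). The part of these cell types in the differences of the 6 genes was not tested.

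Side by side, Otx2 was at -7.25 in RA and -0.23 in VC, Gbx2 at 0.23 and 0.45, and Pou3f1 at -0.95 and -0.25. Sox4 was at 2.36 and 0.28, Zic2 at -1.61 and 0.23, and Zic5 at -2.23 and 0.37, in the same order. The ZIC genes thus had opposite signs in the 2 treatments, though only their RA values passed the test and the difference between treatments was not tested. The 2 comparisons use different arrays and different solvent samples.

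Genes with the most similar profile were found as the smallest root mean square distance over the 12 arrays, each array expressed as its log2 difference from the solvent mean of its design, among 13685 genes tested on both designs. The nearest genes lie below the median distance by construction, so the median is given as a scale only. For Otx2 they were Olig1 (0.193) and Chrna9 (0.204), against a median distance of 3.55 over all genes. In VC, Olig1 differed by -0.03 and Chrna9 by -0.27. For Gbx2 they were 2700081O15Rik (0.107) and Zscan22 (0.109), against a median of 0.490. For Pou3f1 they were Fam111a (0.0826) and E2f8 (0.0858), against 0.517. Sox4 lay nearest to Sdsl (0.100) and Mt1 (0.132), against 1.29. Zic2 lay nearest to Rmnd5b (0.0451) and Mme (0.0629), against 0.777. Zic5 lay nearest to Lactb2 (0.0875) and Plekhf2 (0.0935), against 1.07. Sox3 was not on both designs, so it has no such neighbours here.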

How the data were processed

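Total RNA was measured on Agilent one-colour arrays in 12 samples, in 4 groups of 3. The authors' scanner files hold an intensity per spot, already background-subtracted and detrended, per the file headers, and the submitters' processing notes name Agilent Feature Extraction 10.7. The deposited series tables hold log2 values, used as an alternative only. They follow the scanner signals nearly linearly. How they were normalized is not given in these sources. Log2 intensities were centred on the 75th percentile over non-control spots of the array, outlier-flagged spots were left out and spots of a probe averaged. Testing required signal well above background on 3 or more of 6 arrays. Probes hold accessions without gene names, and these were matched to symbols through a RefSeq table for GRCm38.p6, used for names, neighbours and promoters. On the VC design 27479 of 41174 probes matched, and on the RA design 27235 of 55681.

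Each design was fitted alone (lmFit and eBayes of limma 3.58.1, R 4.3.3), with Benjamini-Hochberg adjustment over all tested probes and calls at an adjusted p under 0.05. A gene of a list is shown by its brightest probe. Where a gene was dim on all arrays of a group, its fold is a lower bound, taken from the brighter mean and a floor, which on each array was its own value or the dimmest detected signal, whichever was higher. The text names every probe of the 7 genes, 4 set genes (Pou5f1, Sox2, Nanog, Cyp26a1), up to 2 rises and 2 falls per list among called genes whose arrays do not overlap, and 2 nearest profiles per gene. Names outside this rule are given as marker calls. A gene of the paralog list is not reported here and was left out of its counts. The 7 genes, the lists and the tests were chosen with earlier results of these data known. The fit was tested on simulated data. The number of arrays limits the precision. Alternatives were other scalings, background corrections, filters, probe summaries, variance models, blocks and each sample left out. The mean spot signal was not used, so normexp ran on the median signal.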

Additional observations from a re-analysis of the deposited data

How the results depend on the processing

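For RA, the calls of Otx2, Pou3f1, Sox3, Sox4, Zic2 and Zic5 kept their direction and side of the threshold under every alternative in which they were tested. Gbx2 reversed to -0.11 with array-median scaling and -0.25 with spike-in scaling. All-probe rises were 6563 with spike-in scaling and 22629 without the filter on low signal. With 1 probe per gene, which tests fewer features, 5742 rose and 6745 fell.

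For VC, Gbx2 was called under none of the 6 settings that leave a sample out and under 10 of the 14 others. The number of the 6 probes called higher was 2 with array-median scaling, 3 with quantile normalization, 2 with the authors' series values, 3 with detection on all 6 arrays, 3 with 1 probe per gene, 3 with trend and robust, and 2 with slide as a random block. Called lower were 1 with detection on all 6 arrays, 1 with 1 probe per gene, 2 with trend and robust, and 1 with slide as a random block. Over all probes, 1410 rose with array-median scaling and 2016 with trend and robust, and 926 fell with spike-in scaling. Rises were 35.8% of calls with the 75th percentile, 56.4% with the array median and 45.5% with the spike-in controls. Limma called 0 higher and 0 lower, over all probes and among the 6, without the filter (7634 probes at an unadjusted p under 0.05), with the slide as a fixed block (6068) and within the shared slide (6061), a fit chosen after seeing the data. The fixed block and the shared-slide fit both take the treatment difference from the shared slide alone, so they are not separate checks. Leaving out a sample gave 0 to 266 rises and 0 to 772 falls over all probes, and 0 to 0 rises among the 6. Both counts were 0 without VC replicate 1 (6236 unadjusted), ddH2O replicate 1 (6262) and ddH2O replicate 2 (5822). Without VC replicate 2, VC replicate 3 and ddH2O replicate 3, rises were 266, 175 and 104, and falls 772, 511 and 283. Pou5f1 in VC, which was not called, turned to -0.0197 with quantile normalization, -0.0220 with the authors' series values, -0.0452 with the slide as a fixed block and -0.0452 within the shared slide, and ranged from -0.0334 to 0.124 with a sample left out. For the moves across settings, that with 1 probe per gene included, the cause was not tested.

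Samples with the same replicate number did not deviate together over all probes (correlations from -0.0692 to 0.0510 for VC and ddH2O, and from -0.0354 to 0.0153 for RA and DMSO). With 3 samples per group, these correlations cannot show whether the numbers pair the samples. With a replicate block, VC gave 0 higher and 0 lower (7644 at an unadjusted p under 0.05), with 0 of the 6 probes higher, and RA gave 12710 higher and 12340 lower.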

Other observations

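Zic1, a relative of Zic2 and Zic5, had 2 probes of the same transcript that disagreed after RA. The probe that is brighter on average was at -0.80, -0.81 and -0.78 on the RA arrays, against 0.26, 0.33 and 0.36 on the DMSO arrays, a difference of -1.11 (limma adjusted p = 3.21e-05). The other was at 1.95, 1.93 and 1.97 on the RA arrays, against -5.14, -5.70 and -5.91 on the DMSO arrays, a difference of 7.53 (limma adjusted p = 1.49e-06). It was well above background on 3 RA arrays and 2 DMSO arrays. Zic1 is counted among the paralogs that fell, by the brighter probe, and the direction of its transcript after RA is not settled. With the other probe it would count among those that rose. On the VC design its 2 probes gave -0.59 (limma adjusted p = 0.139) and -0.52 (limma adjusted p = 0.0518).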
